A study of Homo sapiens with 9 samples.

Results

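The genes of the actin cytoskeleton and of its linkage to integrins, together with HCLS1, were examined in MEC1 cells, an established cell line of chronic lymphocytic leukemia (CLL). The 52 genes were listed by symbol and matched to rows of the count table, 52 of 59050 in all. Of these, 51 had a CPM (the count scaled to a common library size) above 1 in at least 3 samples and were tested among 13463 genes. ILK alone was below this limit. RNA was sequenced from 3 samples of MEC1 cells in traditional 2D culture (2D), 3 samples bioprinted in a hydrogel scaffold and extracted after 7 days (3D_7d), and 3 extracted after 14 days (3D_14d). All groups were the same cell line and no drug is named for any of them. Every sample title begins with MECPGK, and the meaning of PGK is not given. The labels give no culture time for the 2D samples. Scaffold RNA went through TRIzol, a DNase I step and then the column kit, whereas 2D cells were lysed for the column kit directly, so culture form and extraction cannot be told apart against 2D. The labels do not say whether replicates were separate cultures, and p-values measure the spread between these samples, which may be technical.

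Lymphocytes move, adhere and gather receptors at the plasma membrane by means of actin filaments. The Arp2/3 complex starts branched filaments, formins and VASP proteins extend them, filamins, actinins and plastins crosslink them, and myosins pull on them. Integrins bind ligands outside the cell and are tied to these filaments through talin, kindlin, vinculin and the complex of ILK, PINCH and parvin. HCLS1, the hematopoietic relative of cortactin, binds filamentous actin and the Arp2/3 complex and is phosphorylated by SYK and LYN after engagement of the B cell receptor. Many genes of the actin cytoskeleton are targets of serum response factor (SRF), which binds the CArG box. For this reason the promoters were searched for that box, whose consensus reads alike on both strands. In the windows of 250 bases before to 50 bases after each annotated start (RefSeq, GRCh38.p14), 43 of the 52 genes had an entry and 3 held a CArG box, as did 438 of all 27305 genes with an entry (1.6%). These 3 windows are shown 5′ to 3′ on the minus strand, on which all 3 genes lie, with the box in capitals and 25 bases on each side.
FLNA, chrX:154374694-154374753: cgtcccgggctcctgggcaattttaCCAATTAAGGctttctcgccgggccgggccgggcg
ACTG1, chr17:81512859-81512918: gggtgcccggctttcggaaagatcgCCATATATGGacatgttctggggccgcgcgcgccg
ACTN1, chr14:68977703-68977762: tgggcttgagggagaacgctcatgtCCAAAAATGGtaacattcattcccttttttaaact
The box lay 84 bases before the annotated start in FLNA and ACTG1 and 161 bases before it in ACTN1. The ACTN1 window lay inside that gene's counted span (chr14:68874143-68979440), so the start used there was internal to the span. The FLNA and ACTG1 windows lay outside the spans of their genes, before the 5′ ends. FLNA had the highest fold change of the 51 genes at day 7, ACTG1 rose at day 7, and ACTN1, at 0.526 to 3.82 CPM, did not pass. A match describes the letters of these windows, and ACTB and 8 other members had no entry.

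Between 54662799 and 85968686 counts per sample were assigned to genes. Day 14 replicates differed from one another more than those of the other groups, with replicate 1 standing apart. Ribosomal protein genes took 4.10 to 4.82% of the counts in 2D, 1.66 to 1.82% at day 7 and 1.88 to 3.27% at day 14, and the part of this shift in the results was not tested. Of 9 B cell markers, 8 had a mean above 1 CPM in every group, with a sum of 3293 to 3341 CPM in 2D, 3489 to 4228 at day 7 and 4187 to 4524 at day 14. CD5 was not among them, with a mean of at most 0.362 CPM. The 8 monocyte and macrophage markers summed to at most 1.24 CPM, the 5 epithelial markers to at most 2.24 CPM and the 8 stromal markers to 10.5 to 11.5 CPM in 2D, 2.64 to 5.40 at day 7 and 2.72 to 9.13 at day 14. The sums of the 8 T and NK cell markers were 314 to 359 CPM in 2D, 461 to 490 at day 7 and 531 to 719 at day 14, nearly all of it TRAC, while CD3D, CD3E and CD3G had means below 1 CPM in every group. For the 7 endothelial and platelet markers the sums were 12.8 to 16.2, 34.8 to 50.0 and 46.0 to 77.6 CPM, nearly all of it PECAM1.

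Most of the cytoskeletal genes that passed the test were higher in the scaffold. At day 7, 24 of the 51 tested members were up-regulated against 2D (47.1%), compared with 22.2% of all genes tested, and 2 were down-regulated (3.92%), compared with 21.2% of all genes. At day 14, 21 were up-regulated (41.2%; 19.0% of all genes) and 2 were down-regulated (3.92%; 17.2% of all genes). Their median log2 fold change was 0.39 at day 7 and 0.40 at day 14, where the medians of all genes were -0.0039 and 0.02. The single values lay between -0.92 and 2.25 at day 7, and between -1.0 and 1.35 at day 14. Of the members past the threshold, 10 at day 7 and 4 at day 14 rose by a log2 change of at least 1, and 1 at day 14 fell by as much. Both comparisons share the 2D samples. The members were chosen with earlier results of these data known, so these shares describe the list and do not test it. In these bulk samples, fewer cells of a kind and less RNA per cell cannot be told apart. Scaled by total counts alone, which moved the median of all genes to -0.16 and -0.18, 19 members rose and 6 fell at day 7, and 15 rose and 4 fell at day 14. Of all 13463 genes, 2156 rose and 3580 fell at day 7 under this scaling, and 1603 rose and 3248 fell at day 14. Without 2D replicate 3, 13 members rose at day 14, beside 1564 of all 13163 genes then tested.

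**Figure D1:**
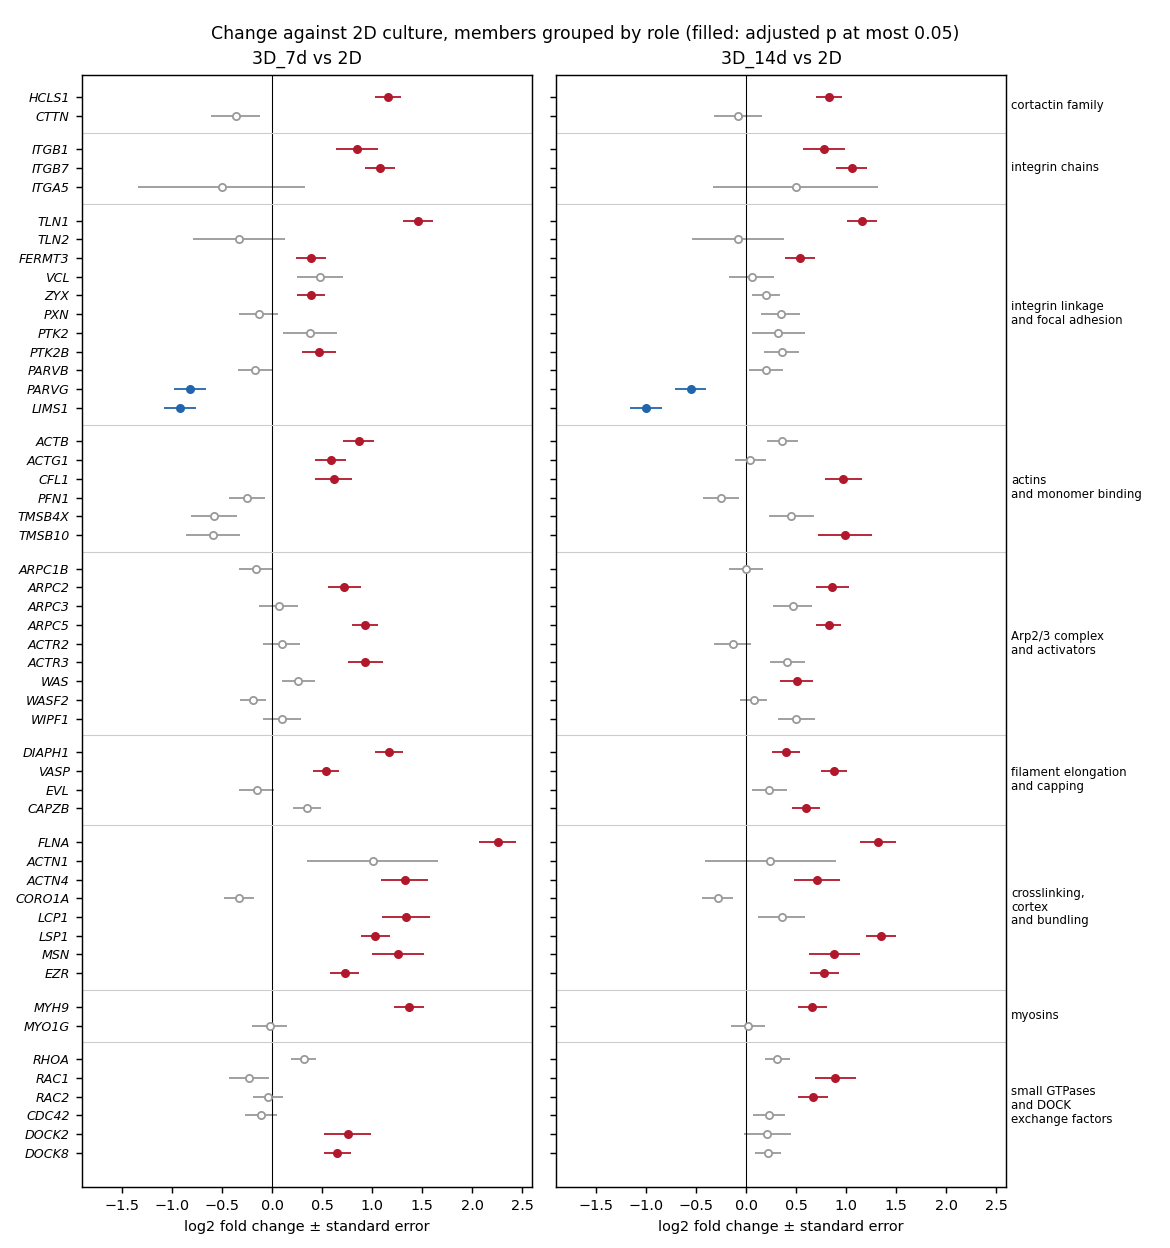
Log2 fold change against 2D with its standard error for the 51 tested members at day 7 (left) and day 14 (right), grouped by role, with genes at an adjusted p of at most 0.05 (edgeR's quasi-likelihood test) filled in red where up-regulated and blue where down-regulated. Upward calls (24 and 21) outnumbered downward ones (2 and 2, PARVG and LIMS1 at both times).

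HCLS1 (chr3:121631399-121660903, minus strand, GRCh38; exons of 1992 bases, none shared with another gene) was higher in every scaffold sample than in any 2D sample. Its level in 2D was 293, 299 and 275 CPM in replicates 1 to 3. At day 7 it was 665, 630 and 636 CPM, and at day 14 it was 476, 560 and 501 CPM. The groups did not overlap, with day 14 between 2D and day 7. Against 2D, the log2 fold change of HCLS1 at day 7 reached 1.16 (standard error, SE, 0.128; adjusted p = 3.26e-05 by the quasi-likelihood test of edgeR, adjusted after Benjamini and Hochberg) and that at day 14 reached 0.83 (SE 0.127, adjusted p = 0.000404). From day 7 to day 14 the log2 difference was -0.33 (SE 0.126, adjusted p = 0.0695) and missed the threshold.

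CTTN, the cortactin gene of other tissues, had a low level throughout, with 5.72, 4.74 and 4.09 CPM in 2D, 3.34, 4.09 and 3.86 CPM at day 7, and 4.82, 4.79 and 4.12 CPM at day 14. Both scaffold groups overlapped with 2D. Log2 fold changes of -0.37 at day 7 (SE 0.242, adjusted p = 0.24) and -0.08 at day 14 (SE 0.242, adjusted p = 0.814) did not pass, nor did the difference of 0.28 between the time points (SE 0.243, adjusted p = 0.407). Per length, HCLS1 exceeded CTTN by 86.9 to 114 times in the 2D samples, 262 to 338 times at day 7 and 168 to 207 times at day 14, as ratios of RPKM (CPM per kilobase of exon).

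Of 5 genes whose proteins work with HCLS1 (HAX1, SYK, LYN, GRB2 and VIM), none was up-regulated and 2 were down-regulated at day 7, and none passed the test at day 14 against 2D. Of all genes tested, 21.2% fell at day 7. The 2 were HAX1 and LYN, named here after their values were seen. HAX1, which binds HCLS1, had 256 ± 18.2 CPM in 2D and 153 ± 7.08 CPM at day 7 (SD, n = 3), and its log2 level fell by 0.75, or by 0.46 with the length trend removed. The kinase gene LYN fell by 0.72 on the log2 scale, from 123 ± 28.0 to 75.0 ± 9.04 CPM (SD, n = 3), a call lost without 2D replicates 1 or 2 or day 7 replicates 2 or 3 (-0.95 to -0.67 without single samples).

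Of 3 integrin chains among the members, the 2 β chains were up-regulated at both times (66.7%, beside 22.2% and 19.0% of all genes). Other β chains, no members and named after their values were seen, did not move alike. ITGB5 rose at both times, ITGB8 fell at day 14, and ITGB2 (668 ± 32.6 CPM in 2D, SD, n = 3) and ITGB3 did not pass against 2D. ITGB7, the β chain of the receptor for the gut addressin MAdCAM-1, had 96.2, 107 and 98.4 CPM in 2D, 203, 214 and 219 CPM at day 7 and 203, 252 and 171 CPM at day 14. Every scaffold sample was above every 2D sample, and the change was 1.08 at day 7 (SE 0.153, adjusted p = 0.000178, edgeR) and 1.05 at day 14 (SE 0.153, adjusted p = 0.000295) on the log2 scale. Because 51.8% of its exonic bases are shared with ZNF740, reads of the 2 genes may not be separable in these counts. ITGB1, the β chain of the fibronectin and VCAM-1 receptors, was measured at 25.5, 25.9 and 24.1 CPM in 2D and at 43.7, 48.5 and 43.7 CPM at day 7. At day 14 its levels of 27.7, 48.3 and 53.3 CPM were spread widely, with replicate 1 just above the 2D samples. ITGB1 rose by 0.85 at day 7 (SE 0.209, adjusted p = 0.00579, edgeR) and by 0.78 at day 14 (SE 0.209, adjusted p = 0.0116) on the log2 scale. The day 14 call was lost without 2D replicate 3 and with total counts as the scaling; values without single samples ran from 0.60 to 1.02. ITGA5, the α chain of a fibronectin receptor, did not exceed 4.83 CPM in any sample and did not pass in any comparison. ITGA4, the α4 chain that pairs with ITGB7 and with ITGB1, is no member and is named here after its values were seen. It was measured at 118, 136 and 132 CPM in 2D, at 109, 98.4 and 83.7 CPM at day 7 and at 48.7, 83.6 and 97.0 CPM at day 14. Every scaffold sample was below every 2D sample. The day 7 difference did not pass, and at day 14 ITGA4 fell by 0.75 on the log2 scale (SE 0.214, adjusted p = 0.0161, edgeR). ITGAE, the αE chain that also pairs with ITGB7, is no member either and was named after its values were seen. It fell by 1.13 at day 7 (SE 0.282, adjusted p = 0.00628, edgeR), from 13.8 ± 0.218 to 6.32 ± 0.729 CPM (SD, n = 3). At day 14 ITGAE did not pass against 2D. Of the 12 tested integrin chains that are no members, 2 rose and 2 fell at day 7.

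Among the genes that link integrins to actin, 4 of 11 tested rose and 2 fell at day 7 (36.4% and 18.2%, beside 22.2% and 21.2% of all genes). At day 14, 2 rose and 2 fell (18.2% each, beside 19.0% and 17.2% of all genes). TLN1 (chr9:35696948-35732195, minus strand), which encodes the talin that binds integrin tails and actin, was measured at 282, 310 and 358 CPM in 2D. The scaffold samples held 962, 867 and 782 CPM at day 7 and 704, 775 and 643 CPM at day 14, all far above 2D. Its log2 fold changes were 1.46 at day 7 (SE 0.149, adjusted p = 1.96e-05, edgeR) and 1.16 at day 14 (SE 0.148, adjusted p = 0.000119). TLN2, the other talin, was between 1.45 and 6.63 CPM and did not pass.

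FERMT3, the kindlin of blood cells, rose by 0.39 at day 7 and by 0.54 at day 14 on the log2 scale, from 394 to 414 CPM in 2D to 495 to 579 and 503 to 702 CPM. Zyxin (ZYX), a protein of focal adhesions, rose by 0.39 at day 7, and PTK2B, the kinase PYK2 of blood cells, by 0.47. All 3 day 7 calls lay close to the threshold, and each was lost when any 1 of the 6 samples of 2D and day 7 was left out (values of 0.30 to 0.40 for FERMT3, 0.28 to 0.42 for ZYX and 0.40 to 0.49 for PTK2B over the 9 fits without 1 sample), and with total counts, filterByExpr or no filter. The day 14 call of FERMT3 was lost without any 1 of the 2D replicates, with values of 0.39 to 0.64, with total counts and with no filter. Vinculin (VCL, 25.1 to 57.2 CPM), paxillin (PXN, 17.8 to 29.7 CPM), the focal adhesion kinase gene PTK2 (7.72 to 15.4 CPM) and the parvin gene PARVB (54.9 to 94.9 CPM) did not pass in any comparison.

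The members that fell belong to the complex of ILK, PINCH and parvin. LIMS1 (chr2:108534355-108687246, plus strand), which encodes PINCH1, was at 56.5, 60.0 and 57.0 CPM in 2D, at 36.9, 27.8 and 26.6 CPM at day 7 and at 31.4, 28.2 and 26.8 CPM at day 14. No scaffold sample reached the 2D range, and the log2 level fell by 0.92 at day 7 (SE 0.16, adjusted p = 0.000653, edgeR) and by 1.00 at day 14 (SE 0.161, adjusted p = 0.00053). PARVG, the parvin of blood cells, was at 110, 111 and 103 CPM in 2D, 73.5, 55.6 and 54.0 CPM at day 7 and 77.8, 79.2 and 63.3 CPM at day 14, again without overlap. It fell by 0.82 at day 7 and by 0.56 at day 14 on the log2 scale. ILK itself was listed at 0.420 to 1.12 CPM and was not tested, and 83.8% of its exonic bases are shared with TAF10 and other genes, so its counts may leave out reads that fall on both.

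Of 6 actin and monomer-binding genes, 3 rose at day 7, 2 rose at day 14 and none fell against 2D. The upward shares were 50.0% and 33.3%, beside 22.2% and 19.0% of all genes. Of all genes, 21.2% and 17.2% fell. ACTB (chr7:5527148-5530602, minus strand), the β-actin gene, had the highest RPKM of all tested genes in 2D. It was measured at 21070, 21290 and 18910 CPM in 2D, at 41350, 34990 and 35200 CPM at day 7 and at 26060, 31060 and 21620 CPM at day 14. The groups did not overlap, and ACTB rose by 0.86 at day 7 on the log2 scale (SE 0.155, adjusted p = 0.000802, edgeR), while day 14 did not pass against 2D. ACTB alone took 2.11 to 2.29% of all counts in 2D, 3.38 to 4.10% at day 7 and 2.20 to 2.88% at day 14. For ACTG1, the γ-actin gene, the levels were 2365, 2381 and 2253 CPM in 2D, 4035, 3210 and 3264 CPM at day 7 and 2328, 2853 and 2022 CPM at day 14. The day 7 samples were the highest, with a log2 rise of 0.59 (SE 0.156, adjusted p = 0.00916, edgeR), and day 14 overlapped with 2D. This call was lost without 2D replicate 3 and with no filter on low counts; values without single samples ran from 0.45 to 0.61. Counts of rows named as pseudogenes reached at most 0.441% of the sum with the gene for ACTG1 and 0.0166% for ACTB.

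CFL1, which encodes the filament-severing protein cofilin, was at 1021, 844 and 774 CPM in 2D, at 1371, 1304 and 1364 CPM at day 7 and at 2094, 1243 and 1827 CPM at day 14. All scaffold samples were above 2D, by a log2 fold change of 0.61 at day 7 and of 0.97 at day 14 (SE 0.185, adjusted p = 0.00166, edgeR). The day 7 call was lost without 2D replicates 2 or 3 or any 1 of the day 7 replicates, with values of 0.48 to 0.69 when 1 sample was left out, and with total counts as the scaling (0.46). The thymosins, which hold actin monomers, had their lowest mean at day 7 and their highest at day 14. TMSB10 (chr2:84905656-84906671, plus strand) was at 1127, 868 and 765 CPM in 2D, at 680, 539 and 611 CPM at day 7 and at 2675, 1061 and 1726 CPM at day 14. Day 14 replicate 2 lay within the 2D range, and the log2 fold change at day 14 was 0.98 (SE 0.269, adjusted p = 0.0126, edgeR), a call lost without 2D replicates 2 or 3; values without single samples ran from 0.60 to 1.26, the lowest without day 14 replicate 1. TMSB4X was at 11890, 10050 and 9135 CPM in 2D, 7220, 6402 and 7143 CPM at day 7 and 20740, 10340 and 11410 CPM at day 14, and did not pass against 2D at either time. Profilin (PFN1), which feeds monomers to growing filaments, was between 768 and 1349 CPM and did not pass.

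Of 9 genes of the Arp2/3 complex and its activators, 3 rose at day 7 and 3 at day 14. That was 33.3% each time, beside 22.2% and 19.0% of all genes. ARPC5, a subunit of the complex, was at 422, 410 and 385 CPM in 2D, 700, 817 and 803 CPM at day 7 and 721, 694 and 740 CPM at day 14, and both scaffold groups were clear of 2D. Its log2 fold changes were 0.93 (SE 0.128, adjusted p = 0.000138, edgeR) and 0.82 (SE 0.128, adjusted p = 0.000427). ACTR3, one of the actin-related subunits, had 379, 398 and 368 CPM in 2D, 616, 821 and 749 CPM at day 7 and 375, 559 and 590 CPM at day 14. It rose by 0.93 at day 7 (SE 0.178, adjusted p = 0.00122, edgeR), and day 14 overlapped with 2D and did not pass. ARPC2 rose from 711, 672 and 601 CPM to 1034, 1131 and 1104 CPM at day 7 and 1511, 1113 and 981 CPM at day 14, a log2 change of 0.72 and of 0.86 (SE 0.165, adjusted p = 0.00169, edgeR). WAS, the hematopoietic activator of the complex, rose by 0.51 at day 14, from 25.3 to 29.5 CPM in 2D to 32.1 to 45.1 CPM. This last call was lost in 8 of 17 alternatives, among them the fits without each of the 2D replicates, day 7 replicate 3 or day 14 replicate 3 (0.39 to 0.63 without single samples). ARPC1B (11.2 to 15.3 CPM), ARPC3 (339 to 711 CPM), ACTR2 (219 to 404 CPM), WASF2 (81.2 to 115 CPM) and WIPF1 (107 to 209 CPM) did not pass in either comparison. ARPC1B shares 66.5% of its exonic bases with other genes, so its level is uncertain.

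Filament elongation and capping genes rose in 2 of 4 cases at day 7 and in 3 of 4 at day 14. DIAPH1, a formin that extends unbranched filaments, was at 69.4, 70.5 and 78.8 CPM in 2D and at 161, 168 and 164 CPM at day 7. At day 14 it was at 81.0, 101 and 107 CPM, between the other groups and without overlap with either. The log2 fold change was 1.17 at day 7 (SE 0.141, adjusted p = 5.78e-05, edgeR) and 0.40 at day 14, where the call was lost in 12 of 17 alternatives, including every fit without 1 sample other than day 14 replicate 1 (0.32 to 0.52). VASP, which extends filaments at the leading edge, was at 116, 106 and 97.2 CPM in 2D, 156, 151 and 157 CPM at day 7 and 203, 182 and 203 CPM at day 14. Its 3 groups did not overlap, and it rose by 0.54 (SE 0.128, adjusted p = 0.00468, edgeR) and by 0.88 (SE 0.129, adjusted p = 0.0003) on the log2 scale. The day 7 call was lost without 2D replicate 3 (0.43 to 0.56 without single samples) and with no filter. CAPZB, a subunit of capping protein, had 260, 248 and 212 CPM in 2D and 418, 346 and 325 CPM at day 14, with no overlap. It rose by 0.60 (SE 0.142, adjusted p = 0.00605, edgeR) on the log2 scale, lost without 2D replicate 3 (0.48 to 0.67 without single samples) and with no filter. EVL, a relative of VASP, was between 58.9 and 112 CPM and did not pass.

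The crosslinking, bundling and cortical genes had the highest share of upward calls at day 7 among the role groups of more than 3 genes, with 6 of 8 up-regulated at day 7 and 5 of 8 at day 14, none down-regulated and medians of 1.14 and 0.75 (log2). FLNA (chrX:154348529-154374638, minus strand), the filamin that crosslinks filaments and ties them to integrin β chains, was at 141, 180 and 183 CPM in 2D and at 805, 782 and 816 CPM at day 7. At day 14 it was at 322, 530 and 405 CPM. The 3 groups were separate, with day 7 the highest. The log2 fold change was 2.25 at day 7 (SE 0.187, adjusted p = 5.81e-06, edgeR) and 1.32 at day 14 (SE 0.182, adjusted p = 0.000202). LSP1 (chr11:1852970-1892263, plus strand), an actin-binding protein of leukocytes, was at 497, 485 and 418 CPM in 2D, 861, 1003 and 999 CPM at day 7 and 1232, 1308 and 1020 CPM at day 14. Unlike FLNA it was highest at day 14, with log2 fold changes of 1.03 (SE 0.146, adjusted p = 0.000171, edgeR) and 1.35 (SE 0.147, adjusted p = 4.29e-05).

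LCP1, the plastin of leukocytes that bundles filaments, was at 1102, 1244 and 1175 CPM in 2D, 2598, 3124 and 3156 CPM at day 7 and 866, 1986 and 1651 CPM at day 14. Day 7 stood above both other groups, with a log2 fold change of 1.33 (SE 0.239, adjusted p = 0.000805, edgeR), and day 14 replicate 1 lay below every 2D sample. For ACTN4, an α-actinin, 18.1, 21.1 and 19.5 CPM in 2D compared with 41.4, 50.5 and 55.1 CPM at day 7 and 23.1, 45.7 and 27.1 CPM at day 14. It rose by 1.32 at day 7 (SE 0.232, adjusted p = 0.000702, edgeR) and by 0.71 at day 14 on the log2 scale, the latter lost without any 1 of the 2D replicates or day 14 replicate 2 (0.36 to 0.90 without single samples), with total counts or with the 6 samples alone. ACTN1, the other non-muscle α-actinin, was between 0.526 and 3.82 CPM and did not pass.

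Moesin (MSN) and ezrin (EZR) tether filaments to the plasma membrane. MSN was at 331, 376 and 371 CPM in 2D, 747, 901 and 924 CPM at day 7 and 348, 855 and 785 CPM at day 14, where replicate 1 lay within the 2D range. Its log2 fold change was 1.25 at day 7 (SE 0.26, adjusted p = 0.002, edgeR) and 0.88 at day 14, a call lost without any 1 of the 2D replicates or day 14 replicates 2 or 3 (0.66 to 1.19 without single samples) or with total counts. EZR was at 621, 655 and 652 CPM in 2D, 1007, 1094 and 1086 CPM at day 7 and 939, 1310 and 1068 CPM at day 14, and rose without overlap by 0.72 and 0.78 on the log2 scale. CORO1A, a coronin of leukocytes, was between 669 and 1049 CPM and did not pass.

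Of the 2 myosins, MYH9 rose at both times and MYO1G did not pass. MYH9 (chr22:36281277-36388067, minus strand), the heavy chain of non-muscle myosin IIA, was at 231, 270 and 297 CPM in 2D, 668, 661 and 726 CPM at day 7 and 362, 477 and 424 CPM at day 14. The 3 groups were separate in the order 2D, day 14, day 7. The log2 fold change was 1.36 at day 7 (SE 0.151, adjusted p = 3.29e-05, edgeR) and 0.66 at day 14 (SE 0.149, adjusted p = 0.00437). MYO1G, a membrane-bound myosin of lymphocytes, stayed between 586 and 950 CPM.

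Of 6 genes of small GTPases and DOCK exchange factors, the exchange factors rose at day 7 and the RAC genes at day 14. DOCK8 was at 82.4, 98.9 and 94.6 CPM in 2D, 136, 145 and 152 CPM at day 7 and 101, 114 and 106 CPM at day 14. It rose without overlap by 0.65 at day 7 on the log2 scale (SE 0.132, adjusted p = 0.00172, edgeR). DOCK2, which activates RAC in lymphocytes, was at 128, 142 and 171 CPM in 2D, 266, 231 and 249 CPM at day 7 and 101, 226 and 184 CPM at day 14, with a rise of 0.76 at day 7 (SE 0.236, adjusted p = 0.0206, edgeR). That call was lost without 2D replicates 1 or 2 or day 7 replicates 1 or 3 (0.62 to 0.83 without single samples) and with total counts as the scaling.

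RAC1 (chr7:6374527-6403967, plus strand) was at 132, 131 and 79.2 CPM in 2D, 115, 81.7 and 94.8 CPM at day 7 and 216, 190 and 230 CPM at day 14. Day 7 overlapped with 2D and did not pass, and day 14 was above both, with a log2 fold change of 0.89 (SE 0.201, adjusted p = 0.00437, edgeR). RAC2, the form of blood cells, was at 674, 649 and 574 CPM in 2D, 697, 561 and 582 CPM at day 7 and 1146, 1022 and 849 CPM at day 14. It too overlapped at day 7 and rose at day 14, by 0.67 on the log2 scale (SE 0.153, adjusted p = 0.00476, edgeR). RAC1 pseudogene rows held 1.01 to 1.59% of the counts of gene and pseudogenes together. RHOA, which drives contraction, was between 679 and 951 CPM, and CDC42, which drives filopodia, between 60.4 and 95.8 CPM, and neither passed.

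**Figure D2:**
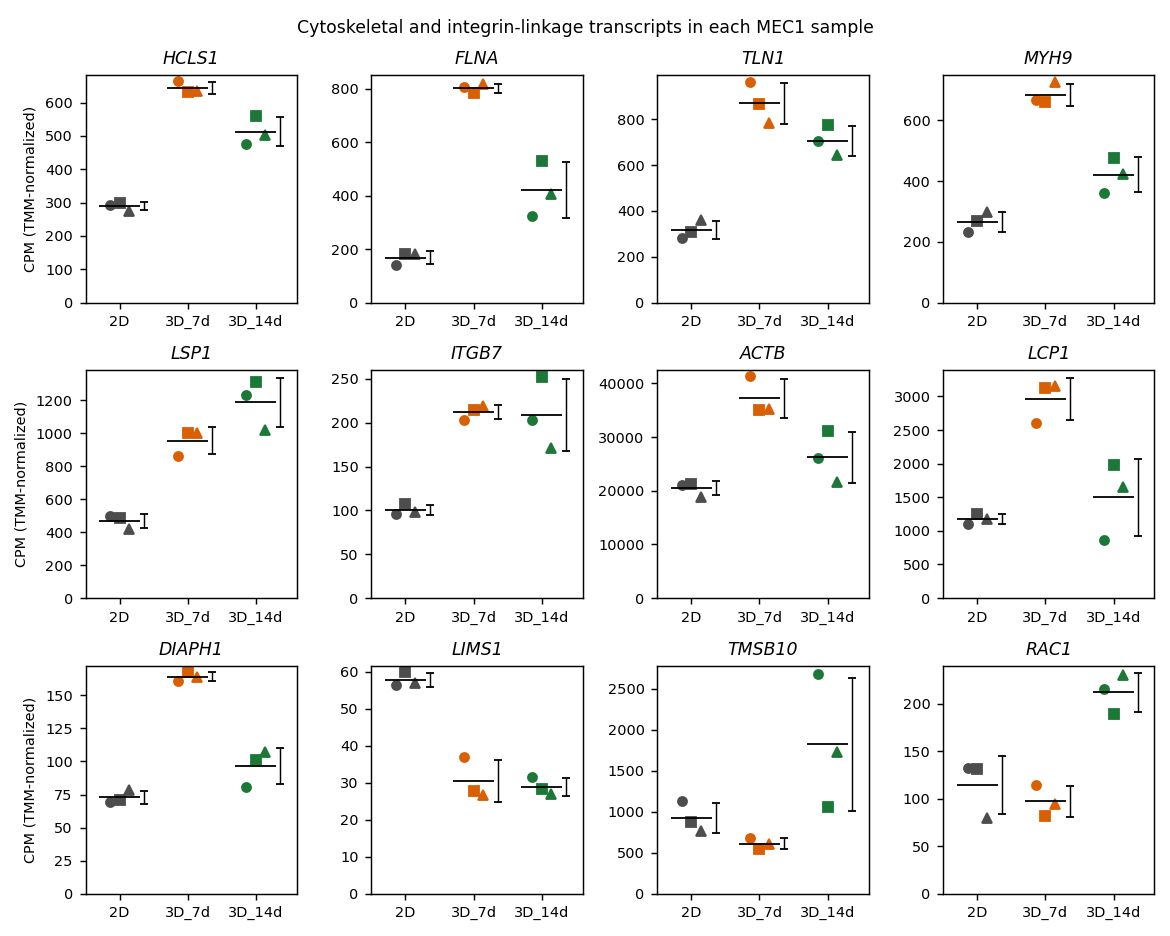
TMM-normalized CPM of 12 members in each of the 9 samples (circle, square and triangle for replicates 1, 2 and 3), with the mean as a line and the SD of 3 samples as a bar beside it, for 2D, 3D_7d and 3D_14d. FLNA, MYH9, LCP1 and DIAPH1 peaked at day 7, HCLS1 and TLN1 stayed above 2D at both times, LIMS1 fell at both times, and RAC1 was highest at day 14 (190 to 230 CPM).

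Levels were compared between related genes per length, as RPKM. Among talins, TLN1 exceeded TLN2 by 95.8 to 137 times in 2D, 217 to 811 times at day 7 and 218 to 320 times at day 14. PTK2B, the kinase of blood cells, exceeded PTK2 by 35.0 to 40.8 times in 2D, 33.3 to 65.5 times at day 7 and 30.9 to 54.2 times at day 14. The actins kept a narrower relation, with ACTB above ACTG1 by 10.3 to 11.0 times in 2D, 12.6 to 13.4 times at day 7 and 13.1 to 13.7 times at day 14. PARVB stood below PARVG in every sample, at a ratio of 0.470 to 0.506 in 2D, 0.556 to 0.937 at day 7 and 0.726 to 0.908 at day 14. The ratio of MSN to EZR was 0.422 to 0.454 in 2D, 0.587 to 0.673 at day 7 and 0.293 to 0.581 at day 14. RAC2 exceeded RAC1 by 5.80 to 8.52 times in 2D, 7.13 to 8.07 times at day 7 and 4.33 to 6.34 times at day 14. The ranges of the TLN1 to TLN2, ACTB to ACTG1 and PARVB to PARVG ratios in 2D did not overlap with those of either scaffold group, whereas the day 14 range of the MSN to EZR ratio spanned the 2D range. By RPKM among the 13463 tested genes, HCLS1 ranked 438 in 2D, 150 at day 7 and 258 at day 14, LCP1 ranked 171, 37 and 148, and FLNA ranked 3274, 837 and 1688. ACTB ranked 1, 3 and 4.

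**Figure D3:**
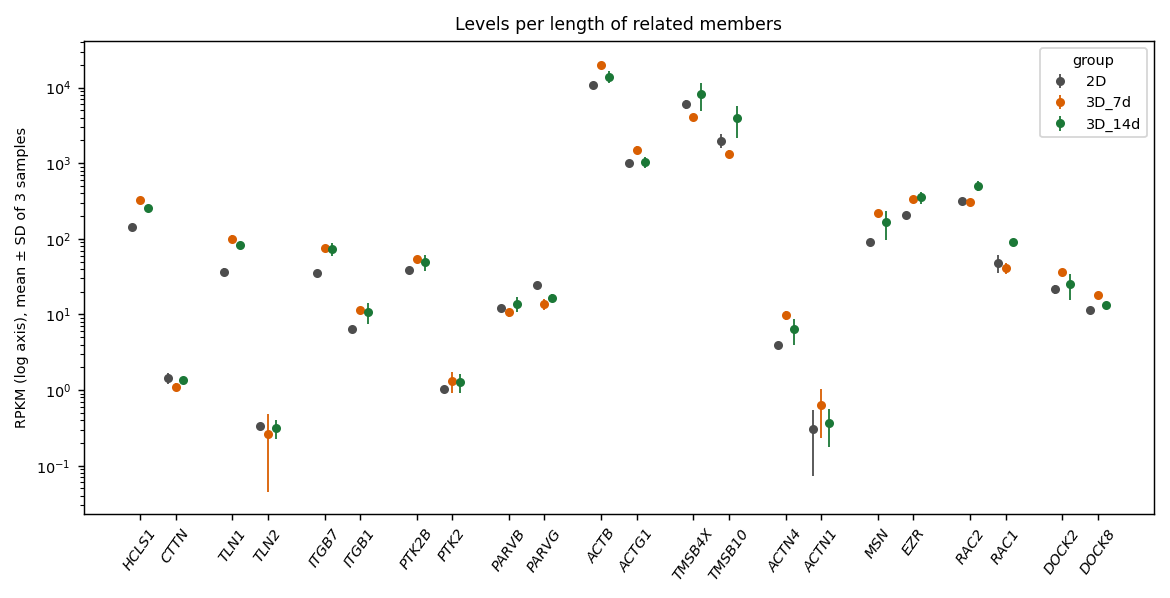
RPKM on a log axis (mean ± SD of 3 samples) of pairs of related members in 2D, 3D_7d and 3D_14d. HCLS1, TLN1, PTK2B and ACTN4 lay far above their relatives CTTN, TLN2, PTK2 and ACTN1 in every group. PARVB and PARVG or MSN and EZR lay closer together, with PARVB and MSN the lower of each pair.

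Between the time points in the scaffold, both of which had the same extraction, 4 of the 51 members were higher at day 14 (7.84%; 14.5% of all genes) and 8 were lower (15.7%; 13.6% of all genes), with a median log2 difference of 0.04 where that of all genes was -0.0012. The thymosins and the RAC genes were higher at day 14. TMSB10 differed by 1.58 (SE 0.272, adjusted p = 0.00168, edgeR), TMSB4X by 1.03 (SE 0.228, adjusted p = 0.00607) and RAC1 by 1.13 (SE 0.202, adjusted p = 0.00205) on the log2 scale, and RAC2 by 0.71. No day 14 sample of these 4 genes fell within the day 7 range, the closest being day 14 replicate 2 for both thymosins. Without day 14 replicate 1 the differences were 1.21 for TMSB10 and 0.67 for TMSB4X.

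The genes lower at day 14 than at day 7 were LCP1 (-0.98), FLNA (-0.93), DIAPH1 (-0.77), MYH9 (-0.70), ACTG1 (-0.55), ACTR3 (-0.52), ACTB (-0.50) and DOCK8 (-0.43), given as log2 differences. All 8 had been up-regulated at day 7, and their day 14 samples lay below the day 7 range. The calls of LCP1, FLNA, DIAPH1 and MYH9 held in all 17 alternatives. That of ACTR3 was lost without any 1 of the 2D replicates, day 7 replicates 2 or 3 or day 14 replicate 1 (-0.64 to -0.33 without single samples), and that of DOCK8 without 2D replicates 2 or 3 or day 7 replicates 2 or 3 (-0.48 to -0.37). ACTB lost its call without 2D replicate 2 or any 1 of the day 7 replicates (-0.64 to -0.38), and ACTG1 lost its call without day 7 replicate 1 (-0.68 to -0.43). All 4 were also lost with no filter and with the 6 samples alone, and ACTR3 with total counts and with filterByExpr.

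Gene length moved with this comparison. The 4 members higher at day 14 had exon lengths of 461 to 2366 bases (median 1858), and the 8 lower ones of 1883 to 8513 bases (median 6502). With the trend of counts with gene length removed in each library, TMSB10 differed by 0.90, TMSB4X by 0.78, RAC1 by 1.05 and RAC2 by 0.56, and FLNA by -0.87, LCP1 by -0.92, DIAPH1 by -0.66 and MYH9 by -0.62, all with adjusted p-values of at most 0.00662 (edgeR). DOCK8 lost its call (-0.35, adjusted p = 0.0629). HCLS1, whose exons span 1992 bases, then passed the threshold with a log2 difference of -0.48 (adjusted p = 0.0118).

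**Figure D4:**
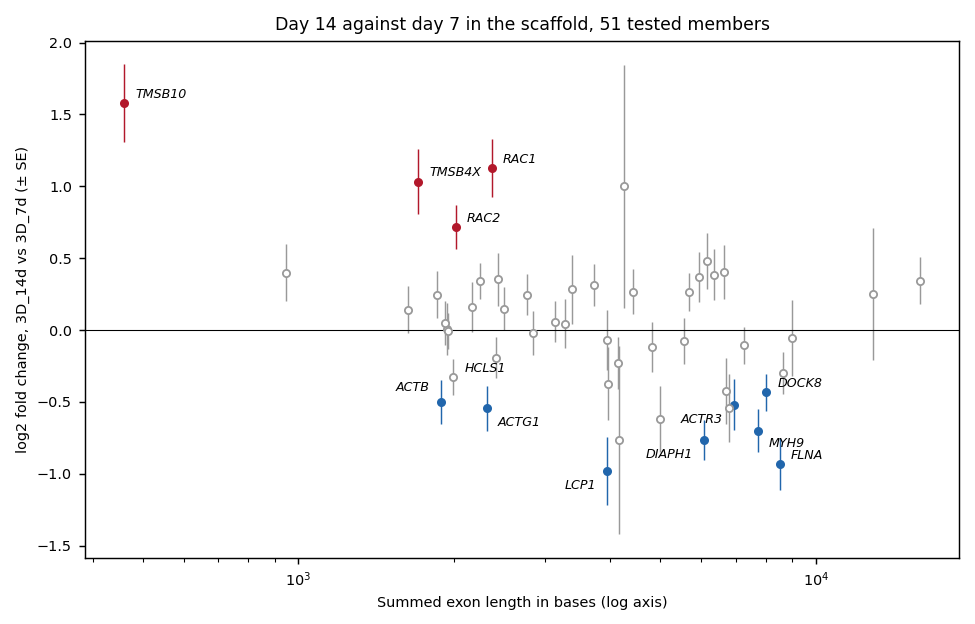
Log2 difference between 3D_14d and 3D_7d (± standard error) against the summed exon length in bases (log axis) for the 51 tested members, with genes at an adjusted p of at most 0.05 filled and named, and HCLS1 named. The 4 higher genes lie at or below 2366 bases, and the 8 lower ones run from 1883 to 8513 bases.

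A wider list of 155 other genes of the same machinery, also chosen with earlier results of these data known, was read in the same fit. Of these, 138 were tested. At day 7, 47 rose, 25 fell and 66 did not pass (34.1% up and 18.1% down, median log2 fold change 0.12), beside 22.2% and 21.2% of all genes. At day 14, 39 rose, 15 fell and 84 did not pass (28.3% up and 10.9% down, median 0.17), beside 19.0% and 17.2% of all genes. Between the time points 24 were higher and 10 lower at day 14 (17.4% and 7.25%, median 0.04), beside 14.5% and 13.6% of all genes. Monomer-binding, severing and capping genes rose in 10 of 19 cases at day 7 and 8 of 19 at day 14, with 2 and 0 lower. Of 19 further linkage and adhesion signalling genes, 9 rose and 2 fell at day 7, and 8 rose and 0 fell at day 14. Nucleation genes split into 10 up and 4 down of 26 at day 7, and 5 up and 4 down at day 14. For further crosslinking, cortex and contraction genes the split was 8 up and 6 down of 28 at day 7, and 10 up and 4 down at day 14. Further integrin chains and their ligand side gave 2 up and 2 down of 12 at day 7, and 2 up and 3 down at day 14.

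CAPG, which caps filaments, rose from 55.7 ± 5.12 CPM in 2D to 148 ± 12.2 CPM at day 7 and 277 ± 78.0 CPM at day 14 (SD, n = 3), by 1.41 (SE 0.187, adjusted p = 0.000113, edgeR) and 2.31 (SE 0.193, adjusted p = 8.95e-06) on the log2 scale. WDR1, which assists cofilin, rose at day 7 from 283 ± 7.97 to 596 ± 24.3 CPM, a log2 change of 1.07 (SE 0.143, adjusted p = 0.000113). NF2, the merlin gene and a relative of ezrin, rose from 51.9 ± 0.806 to 107 ± 7.54 CPM at day 7, by 1.04 (SE 0.135, adjusted p = 9.81e-05). At day 14, MARCKSL1, a membrane-bound actin-binding protein, reached 1112 ± 122 CPM from 416 ± 35.8 CPM, a log2 change of 1.42 (SE 0.169, adjusted p = 7.78e-05). The coronin gene CORO7 was at 53.3 ± 5.52 CPM at day 14 and 23.7 ± 2.34 CPM in 2D, a change of 1.17 (SE 0.15, adjusted p = 0.000124).

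Among those that fell, ADD3, an adducin of the spectrin cortex, went from 115 ± 5.73 CPM in 2D to 33.2 ± 5.59 CPM at day 7 and 42.7 ± 11.8 CPM at day 14 (SD, n = 3), log2 changes of -1.80 (SE 0.205, adjusted p = 3.89e-05, edgeR) and -1.43 (SE 0.203, adjusted p = 0.000245). The adducin gene ADD1, named after its values were seen, went the other way. ADD1 rose from 150 ± 8.89 CPM to 311 ± 3.77 and 320 ± 58.4 CPM, by 1.06 and 1.09 on the log2 scale. RHOB, a small GTPase of endosomes, went from 13.5 ± 1.85 CPM to 2.94 ± 0.699 and 4.10 ± 0.874 CPM, by -2.20 (SE 0.259, adjusted p = 4.75e-05) and -1.72 (SE 0.254, adjusted p = 0.000313). LIMS2, which encodes PINCH2, the relative of LIMS1, went from 7.33 ± 1.33 to 1.68 ± 0.431 CPM at day 7, a log2 change of -2.12 (SE 0.282, adjusted p = 0.000113). At day 14 LIMS2 was at 5.52 ± 0.993 CPM, which did not pass against 2D and was higher than day 7 by 1.71 on the log2 scale. DIAPH3, a formin of the same family as DIAPH1, went from 34.7 ± 2.02 to 8.13 ± 1.80 CPM at day 14, a log2 change of -2.09 (SE 0.212, adjusted p = 2.64e-05), opposite in sign to DIAPH1 in the same samples.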

How the data were processed

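RNA of 9 MEC1 samples, 3 for each of 2D, 3D_7d and 3D_14d, was measured. Per the labels, libraries were prepared with SMART-Seq v4 from 2 ng of RNA and sequenced as single reads of 100 nt. The submitters' processing notes name Trimmomatic 0.39, STAR 2.5.3a, featureCounts 1.6.4 and GRCh38. The authors deposited raw counts per gene symbol without normalization, with exon coordinates and the summed exon length. The strand setting and the treatment of reads with several alignments are not given in the sources used here.

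Groups came from the sample descriptions. Genes were kept if their CPM exceeded 1 in 3 or more samples. In R 4.3.3, edgeR 4.0.16 was used for TMM factors and 1 quasi-likelihood model with a mean for each group. P-values were adjusted by the Benjamini-Hochberg method over all 13463 genes, with a threshold of 0.05. CPM and RPKM used TMM-scaled library sizes. The replicate spread set the precision, with 54662799 to 85968686 counts per sample.

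The members and lists were chosen with earlier results of these data known. HCLS1 and CTTN were given statistics in all comparisons. Other members had a fold change in the text only where they passed, and full statistics if the absolute log2 fold change was at least 1 or they were among the 2 smallest p-values of their role list against 2D. From the wider list, the 3 smallest p-values per direction against 2D were named. Alternatives were DESeq2's size factors, total counts alone, filterByExpr, no filter, the Wald test of DESeq2 1.42.0, only the 6 samples compared, a replicate block, a length trend removed by loess (span 0.4) and leaving out each sample. The edgeR and DESeq2 steps were tested on simulated data, in which 200 genes were changed in 3D_7d alone, as many up as down. There edgeR recovered 64.2% of genes changed by a log2 of 1 and 95.8% of those changed by 2. Of the calls, 3.2% fell on unchanged genes with edgeR and 12.7% with DESeq2. In the real data 2985 genes rose and 2853 fell at day 7, far more than were simulated. No shift with gene length was simulated, so these shares may not hold for the real data. Promoter sequences came from RefSeq (GRCh38.p14). The counts of 1 role group of the wider list are not reported here.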

Additional observations from a re-analysis of the deposited data

Results flagged for a closer look

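For 12 members the level in the scaffold differed between the time points, by the test of day 14 against day 7 in the same model (edgeR). Of the 51 tested, 4 were higher (7.84%) and 8 lower (15.7%) at day 14, beside 14.5% and 13.6% of all genes. The log2 difference was 1.58 for TMSB10, 1.13 for RAC1, 1.03 for TMSB4X and 0.71 for RAC2, which were higher at day 14. It was -0.98 for LCP1, -0.93 for FLNA, -0.77 for DIAPH1, -0.70 for MYH9, -0.55 for ACTG1, -0.52 for ACTR3, -0.50 for ACTB and -0.43 for DOCK8, which were lower at day 14. TMSB10, RAC1 and RAC2 were up-regulated against 2D at day 14 and did not pass at day 7, and LCP1, ACTB, ACTG1, ACTR3 and DOCK8 were up-regulated at day 7 and did not pass at day 14. TMSB4X did not pass against 2D at either time. The extraction was the same at both times, and the causes of these differences were not tested.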

How the results depend on the processing

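Scaling by total counts alone gave 6 members down at day 7 and 4 at day 14 where the reported counts were 2 and 2, and medians of 0.23, 0.21 and -0.012 for day 7, day 14 and day 14 against day 7, reported as 0.39, 0.40 and 0.04. Of all calls, 37.6% were then upward at day 7 and 33.0% at day 14, against 51.1% and 52.5%. With only the 6 samples compared, 5 members fell at day 7 and 4 were lower at day 14 than at day 7 (reported 8). With the length trend removed the median of day 14 against day 7 was -0.0068. HCLS1 passed the threshold between the time points under total counts (-0.37, adjusted p = 0.0361), the DESeq2 Wald test (-0.32, adjusted p = 0.0335), the length trend (-0.48, adjusted p = 0.0118) and without day 14 replicate 2 (adjusted p = 0.0283), and ran from -0.39 to -0.26 when 1 sample was left out. Against 2D it passed in all 17 alternatives of each comparison. The causes were not tested.

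Leaving out 1 sample at a time gave 18 to 27 members up and 2 to 5 down at day 7 (median 0.31 to 0.39), 13 to 27 up and 2 to 3 down at day 14 (median 0.34 to 0.50, the highest without day 14 replicate 1), and 4 to 8 higher and 5 to 11 lower at day 14 than at day 7 (median -0.0105 to 0.11). The 13 came without 2D replicate 3, the 8 without day 14 replicate 2, and the 5 lower without 2D replicate 2 or day 7 replicates 2 or 3. The 5 down at day 7 came without day 14 replicate 1. CTTN turned from -0.08 to 0.024 at day 14 without 2D replicate 1, ran from -0.23 to 0.024 when 1 sample was left out, and passed in none of these fits. Of 1309 values for 77 results of single genes other than HCLS1, 1190 kept the direction and the side of the threshold, 118 kept the direction and lost the call, and 1 reversed.

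Same-numbered replicates deviated together with correlations of -0.10 to -0.02 between 2D and day 7, 0.09 to 0.19 between 2D and day 14 and -0.10 to -0.005 between the time points, so the numbers were not taken as pairs. In the 2D and day 14 samples each correlated best with its own number, a hint from the data and not from the design. The replicate block gave 4 members down at day 7 in place of 2, 23 up at day 7, 21 up and 2 down at day 14, and 4 higher and 9 lower between the time points. At the lowest levels, ITGA5 (SE 0.837 at day 7) and ACTN1 (SE 0.655) were measured with less precision than HCLS1 (SE 0.128).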
